A study of Mus musculus with 6 samples.

Results

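The mitochondrial ribosomal protein genes encode the proteins of the mitoribosome, and 78 genes of the 33182 in the deposited table carry a symbol of the form Mrpl or Mrps followed by a number and at most 1 letter. They were taken by symbol alone, with at least 10 counts summed over the 6 libraries, and all 78 met that minimum. All 78 also had a mean of at least 0.5 FPKM (fragment counts over transcript length and library size) and were among the 15740 genes tested. By textbook assignment, 51 encode proteins of the large subunit, 26 encode proteins of the small subunit, and 1, Mrps36, is now regarded as a subunit of the alpha-ketoglutarate dehydrogenase complex.

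The mitoribosome is the ribosome inside mitochondria. It translates the few proteins encoded by mitochondrial DNA, all of them subunits of the oxidative phosphorylation complexes, while its own proteins are encoded in the nucleus, made in the cytosol and imported. Its RNA parts come from mitochondrial DNA, so assembly needs products of both genomes, and neurons depend on it because they rely heavily on oxidative phosphorylation.

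RNA came from the motor cortex of SOD1G93A mice, which carry a mutant human SOD1 transgene and model amyotrophic lateral sclerosis. Both groups carried the transgene and were labelled day 120. The control group (3 libraries) is labelled control, and the ultrasound group (3 libraries) was given low-intensity pulsed ultrasound (LIPUS). The series compared these groups to see what the treatment changes in gene expression. Although the labels speak of a mouse, whether each library is a separate animal is not stated, and the p-values speak only of the variation between libraries, which may be technical. Mice without the transgene were not analysed here.

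Total counts ranged from 38202541 to 60088636 per library, and the members together held between 0.182% and 0.209% of them. Counting error is thus small for most members, whose counts summed over the 6 libraries ran from 752 (Mrpl53) to 26243 (Mrps25). Several libraries stood apart in other genes. Summed FPKM of 7 cortical excitatory neuron markers lay at 216 to 256 in control libraries and 247 to 310 in ultrasound libraries, so the labelled tissue's markers were present in each. Summed FPKM of 3 olfactory bulb markers reached 52.4 in control 3 against 1.35 to 3.13 in the other libraries, and 3 choroid plexus markers reached 238 in ultrasound 3 against 1.97 to 13.1 elsewhere. The 4 striatal markers summed to between 68.7 (control 2) and 252 (ultrasound 3). Erythrocyte markers lay at 85.3 to 95.2 in control 3, ultrasound 1 and ultrasound 2 and at 4.09 to 8.03 in the rest, and neutrophil markers at 15.5 and 27.2 in controls 1 and 2 and at 0.880 to 5.66 in the rest. The 18S ribosomal RNA gene took 4.68% of counts in control 3 and 9.18% in ultrasound 2, against 0.561% to 1.67% in the others. No marker of these lists was at 0 in every library, and what these differences contribute to the values of the members was not tested. In bulk tissue, fewer cells of a type and less RNA per cell cannot be told apart.

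Promoter sequences are shown for the 3 members that descend from 1 bacterial gene, S18, and for the member with the smallest p-value in each direction, since sites for NRF1, GABP and YY1 are known from promoters of many nuclear genes for mitochondrial proteins. The windows run from 250 bases before to 50 after the annotated start and are RefSeq sequences on GRCm38.p6. Capitals mark matches on either strand to GCGCANGCG (bound by NRF1), CCGGAAG (an ETS site, the class bound by GABP) and AAGATGGC (bound by YY1). Overlapping matches are drawn as 1 run of capitals. Mrps18a lies at chr17:46110754-46111053 on the plus strand, Mrps18b at chr17:35916391-35916690 on the minus strand, Mrps18c at chr5:100798509-100798808 on the plus strand, Mrpl32 at chr13:14612988-14613287 on the minus strand and Mrps15 at chr4:126046678-126046977 on the plus strand.
Mrps18a: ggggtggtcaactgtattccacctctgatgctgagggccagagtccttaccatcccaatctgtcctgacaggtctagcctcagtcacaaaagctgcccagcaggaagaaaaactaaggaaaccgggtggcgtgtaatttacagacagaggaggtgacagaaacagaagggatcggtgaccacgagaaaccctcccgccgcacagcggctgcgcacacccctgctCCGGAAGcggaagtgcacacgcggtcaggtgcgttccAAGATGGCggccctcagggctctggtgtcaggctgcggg
Mrps18b: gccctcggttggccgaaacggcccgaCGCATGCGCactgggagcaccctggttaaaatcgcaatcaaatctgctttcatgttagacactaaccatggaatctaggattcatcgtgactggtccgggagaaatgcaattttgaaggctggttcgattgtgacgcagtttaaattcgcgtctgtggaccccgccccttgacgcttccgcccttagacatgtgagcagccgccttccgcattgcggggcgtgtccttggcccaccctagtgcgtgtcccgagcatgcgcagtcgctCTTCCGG
Mrps18c: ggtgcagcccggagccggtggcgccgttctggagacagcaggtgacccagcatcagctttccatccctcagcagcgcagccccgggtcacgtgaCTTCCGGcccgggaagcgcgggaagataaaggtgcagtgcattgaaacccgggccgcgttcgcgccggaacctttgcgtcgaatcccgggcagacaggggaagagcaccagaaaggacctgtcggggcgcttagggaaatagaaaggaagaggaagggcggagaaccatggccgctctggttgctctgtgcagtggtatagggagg
Mrpl32: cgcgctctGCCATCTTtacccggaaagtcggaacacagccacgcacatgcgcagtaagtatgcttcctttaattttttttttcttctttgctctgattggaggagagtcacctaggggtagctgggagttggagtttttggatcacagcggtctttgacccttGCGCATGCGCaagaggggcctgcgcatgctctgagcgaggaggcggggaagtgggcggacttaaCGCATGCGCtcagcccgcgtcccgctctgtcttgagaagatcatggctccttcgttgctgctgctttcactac
Mrps15: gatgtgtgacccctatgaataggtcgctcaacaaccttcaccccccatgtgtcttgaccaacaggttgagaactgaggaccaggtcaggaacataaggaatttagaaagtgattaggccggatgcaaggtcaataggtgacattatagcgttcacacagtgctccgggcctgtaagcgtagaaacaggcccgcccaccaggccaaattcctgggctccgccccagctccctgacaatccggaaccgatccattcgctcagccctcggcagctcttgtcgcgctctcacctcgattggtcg

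The window of Mrps18a held 1 ETS and 1 YY1 match, that of Mrps18b 1 NRF1 and 1 ETS match, and that of Mrps18c 1 ETS match. In Mrpl32 there were 3 NRF1 matches, 2 of them the same palindromic stretch read on either strand, and 1 YY1 match, and in Mrps15 none of these 3 motifs occurred in the window. RefSeq windows were found for 69 members, 3 of them with more than 1 start, which gave 75 windows. At least 1 of the 3 motifs occurred in 58.7% of the member windows, against 28.3% of 13856 windows of tested genes and 16.0% of all 32851 windows.

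Each of the 3 motifs was more frequent among members than among tested genes, a description for which no test was run. The ETS motif occurred in 34.7% of member windows, 15.9% of windows of tested genes and 8.86% of all windows. For NRF1 the shares were 21.3%, 12.3% and 6.25%, and for YY1 16.0%, 4.06% and 2.75%. Base composition was close between members and tested genes, with a median of 21 CpG per window in members and 20 in tested genes (7 in all windows) and a median GC content of 58.7% and 60.7% (52.7% in all windows). The other motifs searched had shares in members that were lower than in tested genes or at most slightly higher. GGGCGG, the Sp1 motif, occurred in 52.0% of member windows and 61.4% of those of tested genes, CCAAT in 40.0% and 37.1%, the E-box CACGTG in 9.33% and 9.70%, and TATAAA in 6.67% and 7.32%. In all 32851 windows these occurred in 35.7%, 37.4%, 7.15% and 13.6%. All were searched on both strands, and a match is a run of letters, not a site shown to be bound.

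**Figure D1:**
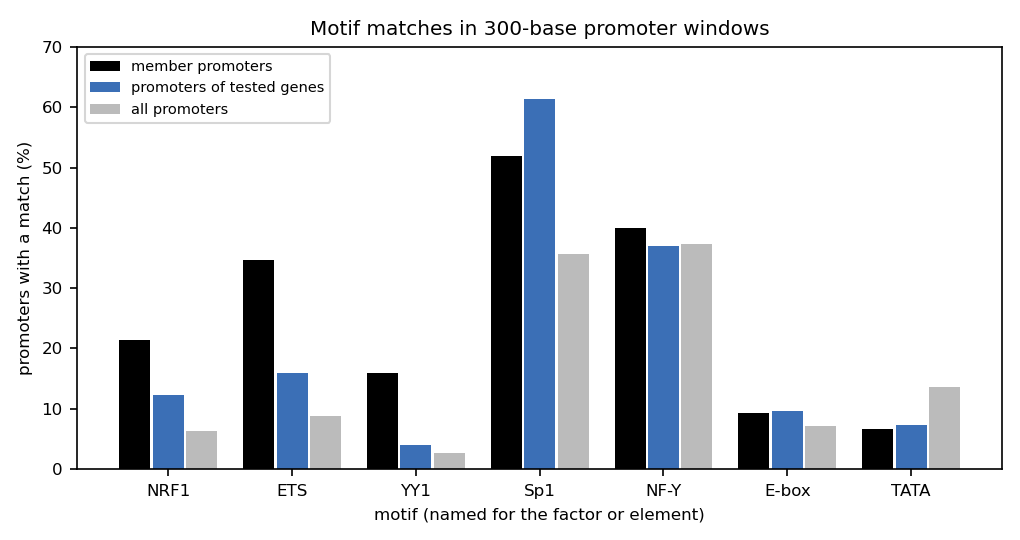
Share of 300-base promoter windows (y axis, percent) that held a match to each motif (x axis), for 75 member windows, 13856 windows of tested genes and all 32851 windows. Matches to NRF1, ETS and YY1 were more frequent in member windows (21.3%, 34.7% and 16.0%) than in windows of tested genes (12.3%, 15.9% and 4.06%).

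Many members also began beside another gene. With coordinates as the table lists them, 32 of the 78 (41.0%) had a protein-coding gene on the other strand starting within 1000 bases, against 14.8% of 12956 tested coding genes. Some of these partners act in the same organelle. The starts of Mrpl36 and Ndufs6, a complex I subunit, lay 51 bases apart, and those of Mrps12 and Sars2, the mitochondrial seryl-tRNA synthetase, 222 bases apart. Mrps27 and Ptcd2, a protein of mitochondrial RNA metabolism, started 81 bases apart. Other partners have no such role, such as Psma2, a proteasome subunit that started 75 bases from Mrpl32, or Helq, a DNA helicase that started 29 bases from Mrps18c. For Mrpl46 and Mrps11, members of opposite subunits, the listed genes overlapped head to head. In all, 35 members (44.9%) overlapped another listed gene, 30 of them on the other strand and 11 on the same strand, against 49.8% of tested genes. Whether counting used strand is not given in the sources, and the values of these members may hold reads of the neighbour. Likewise, reads of members with processed pseudogenes, such as Mrps36 and Mrpl48, may have been split.

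Members were expressed at moderate levels. Mean FPKM over the 6 libraries ran from 1.69 for Mrps35 to 37.0 for Mrpl41, a 21.9-fold range, with a median of 8.79. This median lay above that of all tested genes (4.40), and 62 of the 78 members exceeded the latter. Every member but 1 was above 1 FPKM in each library, and the exception was Mrps10, at 0.960 FPKM in control 3. The 51 large subunit members had a median of 8.82 FPKM and the 26 small subunit members 8.45 FPKM.

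Mrpl41, a large subunit protein without a bacterial counterpart, led with 47.4, 34.8 and 32.5 FPKM in the controls, given in order of library number, and 31.3, 41.1 and 34.7 with ultrasound. Mrps21, the counterpart of bacterial S21, came next with 25.3, 34.0 and 31.7 against 29.2, 39.3 and 30.0 FPKM. Mrpl12, the stalk protein that also binds the mitochondrial RNA polymerase, followed with 22.6, 28.8 and 27.1 against 26.3, 37.1 and 17.3 FPKM. The control and ultrasound values of each of these 3 overlapped, and so did the ranges of neighbours in this order, so their ranks are not separated by the spread. Mrps12, which lies at the decoding centre, Mrpl10, which carries the stalk, and Mrpl28 completed the highest 6 with means of 22.1, 21.7 and 20.2 FPKM. At the low end, Mrps35 averaged 1.69, Mrps10 1.70, Mrpl15 1.94, Mrpl32 2.07, Mrpl33 2.33 and Mrpl13 2.52 FPKM. Mrps35 has no bacterial counterpart, and the other 5 of these are counterparts of bacterial S10, L15, L32, L33 and L13.

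**Figure D2:**
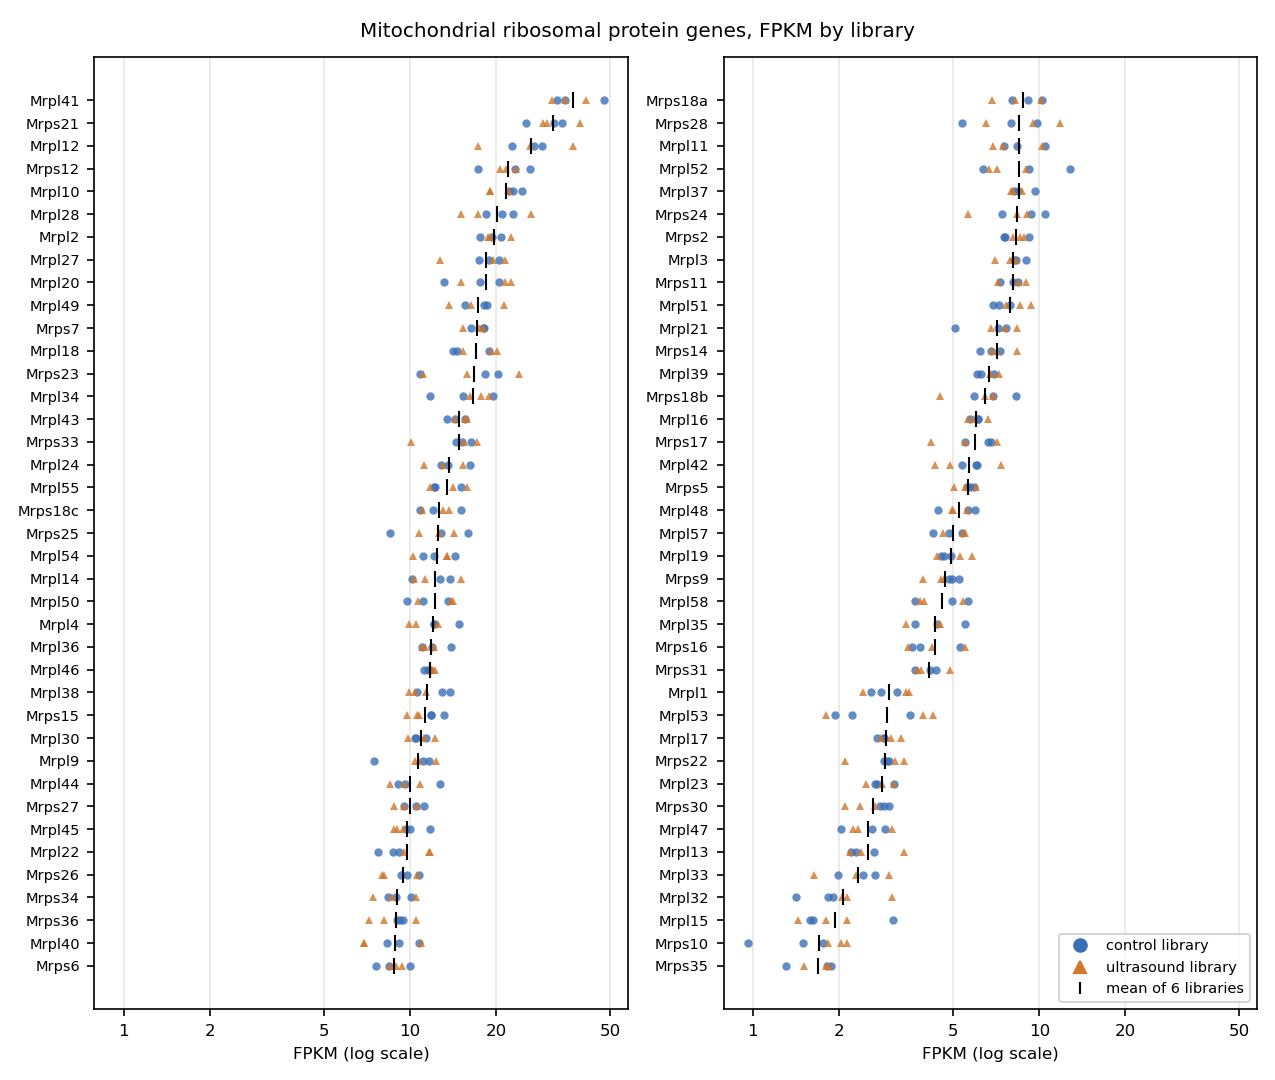
FPKM (x axis, log scale) of each of the 78 members (y axis, ordered by mean, left panel then right) in the 3 control libraries (circles) and 3 ultrasound libraries (triangles), with a bar at the mean of the 6 libraries. Levels run from a mean of 1.69 (Mrps35) to 37.0 (Mrpl41), and circles and triangles overlap for all but 9 members.

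The order of levels depended on the length that a gene was assigned. The length behind each deposited FPKM value was estimated from counts, FPKM and the library's total counts. The estimates ran from 680 to 9691 bases with a median of 2686. The longest coding transcript in GENCODE M21 ran from 463 to 7300 bases with a median of 1327. The authors' number of mapped fragments was not known. Where it exceeds the total counts, the estimates are too long by that factor in all genes alike. The ratio of the estimated length to the coding transcript had a median of 1.53 in members (lowest 1.12, Mrpl50) and 1.44 in 12967 tested genes. For 7 members it exceeded 4, which 1.92% of those tested genes did. Mrpl33, the counterpart of bacterial L33, had a ratio of 17.2, the highest of all tested genes. On CPM per kilobase of coding transcript, where CPM is counts scaled to a common library total, it moved from rank 74 of 78 by FPKM to rank 5, at 40.3. Mrps18a moved from rank 40 to rank 4 (41.2 CPM per kilobase) and Mrpl42 from rank 56 to rank 6 (35.3). The other 4 with such ratios were Mrps10 (8.18), Mrpl23 (7.46), Mrpl13 (7.30) and Mrps9 (4.56). Mrps21 (53.8) and Mrpl41 (47.6) led on this scale, Mrpl17 was lowest at 3.43, and the range was 15.7-fold. Across the 78 members Spearman's rho was 0.671 between the FPKM and the per-kilobase level and -0.733 between FPKM and the length behind it. Both are descriptions across genes of the same libraries, and lengths cancel in the comparisons between groups. The estimated length was computed by dividing by FPKM, so a negative rho with FPKM is partly built in. The per-kilobase level is in effect FPKM times the ratio of the 2 lengths, so it is not independent of FPKM either.

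**Figure D3:**
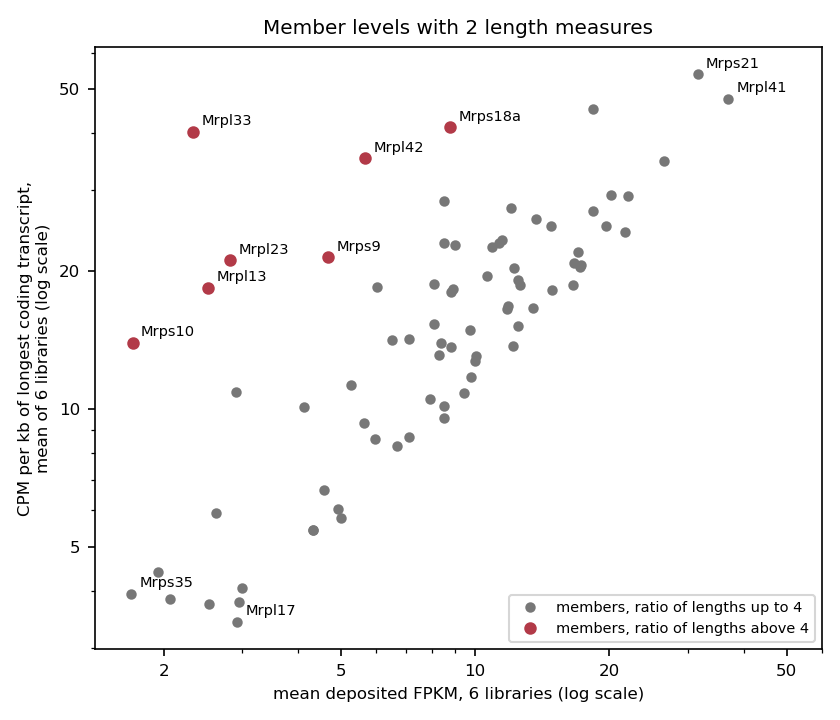
Mean deposited FPKM (x axis, log scale) against CPM per kilobase of the longest coding transcript (y axis, log scale), means of 6 libraries, 1 point per member. The 7 members whose estimated length behind the FPKM is more than 4 times the coding transcript (red) lie above most members of like FPKM. This follows from the computation, since the y value is in effect FPKM times that ratio. Mrpl33 has rank 5 on the y axis and rank 74 on the x axis.

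No member passed the test between ultrasound and control libraries. With edgeR's quasi-likelihood test and Benjamini-Hochberg adjustment over all 15740 genes, 0 of 78 members had an adjusted p under 0.05, where 1 gene of all those tested, Phc3, did (0.00635%), and the smallest adjusted p of a member was 0.973. Without adjustment, 0 members had a p under 0.05, against 4.77% of all tested genes. DESeq2 gave 0 adjusted calls among members, where 0.184% of all genes passed, and 2 unadjusted calls, Mrpl32 and Mrps10, where 5.66% of all genes did. Limma on log2(FPKM + 0.5) gave 0 adjusted calls (0% of all genes) and 1 unadjusted call, Mrpl22, against 4.84% of all genes.

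The members' log2 fold changes were small and of both signs. They ran from -0.27 (Mrpl52) to 0.54 (Mrps10), with a median size of 0.10, against 0.18 over all tested genes. These sizes were compared without matching for expression level. Of the 78, 45 (57.7%) were higher with ultrasound, where 48.8% of all genes were, and their median was 0.03 against -0.01. With library totals in place of TMM factors all genes moved together, and 34 of 78 members (43.6%) were higher with a median of -0.03, against 40.2% and -0.06 of all genes. The difference between the medians of members and all genes was thus nearly the same, at 0.04 with TMM and 0.03 with totals. It changed side without ultrasound 2, where 30 members were higher with a median of -0.06 (all genes -0.01), and without ultrasound 3 it grew to 55 higher and 0.11 (all genes -0.01). Without control 3 the counts were 47 higher and a median of 0.06.

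A p above the threshold does not show that a member did not differ, and the intervals give what size of change these libraries allow. The 95% interval of the log2 fold change reached a median of 0.45 to either side (0.29 to 1.07 over the members). For 74 of 78 members the whole interval lay between -1 and 1, which is a 2-fold change either way, and for 21 between -0.5 and 0.5. The 4 members whose interval went beyond 1 were Mrps28 (-0.47 to 1.10), Mrpl53 (-0.65 to 1.49), Mrpl32 (-0.01 to 1.06) and Mrps10 (-0.02 to 1.11). Replicates agreed more closely for members than for all tested genes. The comparison was not matched for level, and median FPKM was 8.79 in members and 4.40 in all tested genes. The within-group SD of log2 CPM had a median of 0.23 in members and 0.28 in all tested genes, and 55 of 78 members lay below the latter. It was lowest for Mrps5 (0.062) and highest for Mrpl53 (0.60), the member with the fewest counts.

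**Figure D4:**
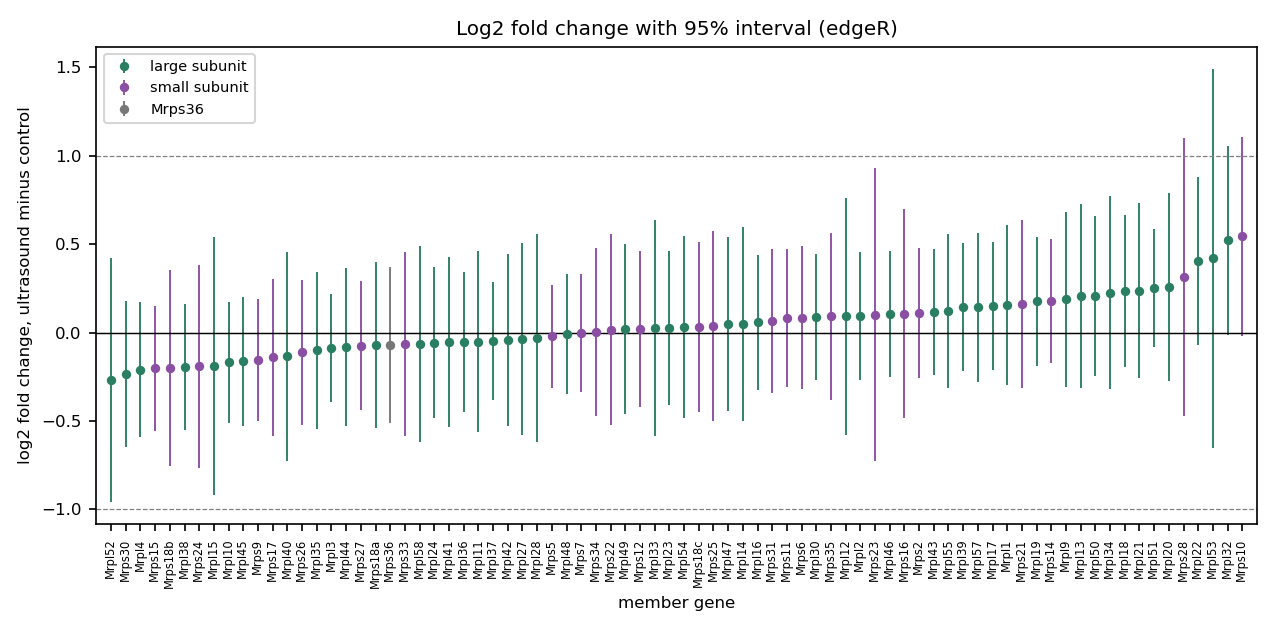
Log2 fold change of ultrasound minus control (y axis) for each of the 78 members (x axis, in order), as edgeR estimates (points) with 95% intervals (bars), coloured by subunit. Estimates run from -0.27 to 0.54, each interval holds 0, and 4 of them go beyond 1 (upper dashed line).

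Among large subunit members, Mrpl32 had the smallest p of all 78. It encodes the counterpart of bacterial L32, whose precursor is cut by the m-AAA protease before it enters the particle. Its FPKM was 1.83, 1.91 and 1.42 in the controls and 2.06, 2.12 and 3.05 with ultrasound. All ultrasound values thus lay above all control values, with ultrasound 3 the highest and control 3 the lowest. The log2 fold change was 0.52 (SE 0.23), and edgeR's adjusted p was 0.973 (unadjusted 0.055). Without ultrasound 3, the log2 fold change was 0.34. Mrpl22, whose bacterial counterpart lines the exit tunnel, had 7.70, 9.12 and 8.72 FPKM in controls and 9.49, 11.6 and 11.7 with ultrasound. Its groups did not overlap either, and its log2 fold change was 0.40 (SE 0.20, edgeR adjusted p 0.973, unadjusted 0.084).

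The other large subunit members highest in this order showed overlapping groups. Mrpl51, which has no bacterial counterpart, stood at 6.88, 7.88 and 7.24 FPKM in controls and 9.36, 8.53 and 7.63 with ultrasound, so only ultrasound 3 fell within the control range (log2 fold change 0.25, SE 0.14). Mrpl18, Mrpl20 and Mrpl19, counterparts of bacterial L18, L20 and L19, had log2 fold changes of 0.24 (SE 0.19), 0.26 (SE 0.23) and 0.18 (SE 0.16). All 3 depended on single libraries. Mrpl18 was 0.15 without ultrasound 2, 0.37 without control 2 and 0.36 without ultrasound 3. Mrpl19 was 0.11 without ultrasound 1, 0.12 without ultrasound 2 and 0.29 without ultrasound 3. Mrpl20 was 0.11 without control 1, 0.10 without ultrasound 2, 0.40 without control 2 and 0.43 without ultrasound 3. For Mrpl20, the FPKM was 13.1, 20.5 and 17.6 in controls and 21.5, 22.6 and 15.1 with ultrasound, and ultrasound 3 fell within the control range. The adjusted p of these 3 was 0.976 each by edgeR.

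On the lower side, Mrpl4, a counterpart of bacterial L4, had a log2 fold change of -0.21 (SE 0.17), with 12.1, 12.1 and 14.9 FPKM in controls and 9.91, 10.5 and 12.5 with ultrasound. Its estimate was -0.09 without control 3 and -0.12 without ultrasound 1. Mrpl10 had -0.17 (SE 0.15), with 22.2, 24.6 and 22.9 against 19.0, 22.2 and 19.1 FPKM. Its groups were narrowly apart, with control 1 at 22.22 and ultrasound 2 at 22.16 FPKM, and they overlapped once the counts were scaled by TMM. The estimate of Mrpl10 was -0.10 without ultrasound 1 and -0.29 without ultrasound 2. Mrpl38 (-0.19, SE 0.15) and Mrpl45, which tethers the particle to the inner membrane (-0.16, SE 0.16), were of similar size, and they were -0.12 without control 2 and -0.06 without control 3. Mrpl52 had the lowest estimate, -0.27 (SE 0.30), but its FPKM of 6.35, 9.19 and 12.8 in controls spanned the ultrasound values of 7.10, 8.96 and 6.65. Its estimate rested on control 3 and was 0.02 without it, while it was -0.48 without control 1, -0.46 without ultrasound 2 and -0.17 without ultrasound 3. For each of these members the adjusted p of edgeR was 0.976.

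Among small subunit members, Mrps10, the counterpart of bacterial S10, had the largest estimate of the 78. Its FPKM was 1.76, 1.5 and 0.960 in controls and 1.83, 2.03 and 2.13 with ultrasound. The groups did not overlap, and control 3, the library with olfactory bulb markers, was the lowest. The log2 fold change was 0.54 (SE 0.24, edgeR adjusted p 0.973), and without control 3 it was 0.34. Mrps14, the counterpart of bacterial S14, had 0.18 (SE 0.15) with overlapping groups, and 0.10 without ultrasound 3.

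Mrps15, the counterpart of bacterial S15, had the smallest p among members with a negative estimate. It stood at 11.8, 13.2 and 11.8 FPKM in controls and 10.8, 10.5 and 9.75 with ultrasound, so each ultrasound library lay below each control library. Its log2 fold change was -0.20 (SE 0.15, edgeR adjusted p 0.976). Mrps9, the counterpart of bacterial S9, had 5.23, 4.94 and 4.82 FPKM against 4.63, 4.55 and 3.92, again without overlap, and a log2 fold change of -0.16 (SE 0.15, edgeR adjusted p 0.976), which was -0.07 without ultrasound 3.

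In all, the deposited FPKM of the groups did not overlap for 9 members (11.5%), near the 10.8% of all tested genes. In 4 of them (Mrpl32, Mrps10, Mrpl22 and Mrpl46) ultrasound was higher, and in 5 (Mrps15, Mrps30, Mrpl10, Mrps9 and Mrpl45) it was lower, where 3.7% and 7.08% of all genes were. On TMM-scaled CPM, 4 members remained, 3 higher (Mrpl32, Mrps10 and Mrpl22) and 1 lower (Mrps15), against 5.69% and 5.66% of all genes. Of all genes with groups apart, 34.3% were higher with ultrasound by FPKM and 50.1% by TMM-scaled counts. FPKM values carry no such scaling, and with library totals alone the median gene lay 0.11 below its own mean on the log2 scale in ultrasound 2, the library with the most 18S counts. In control 3, next in 18S counts, it lay 0.01 above its own mean. What part scaling or 18S counts have in the difference between these shares was not tested.

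The S18 paralogues illustrate the members whose names and places differ. Mrps18a is found in the large subunit in spite of its symbol, while Mrps18b and Mrps18c belong to the small subunit. By FPKM, Mrps18c had the highest mean of the 3, with 10.9, 12.1 and 15.1 in controls and 11.03, 13.7 and 13.0 with ultrasound. Mrps18a stood at 8.06, 9.16 and 10.2 against 8.20, 10.2 and 6.85 FPKM, and Mrps18b at 6.89, 5.90 and 8.29 against 6.45, 6.89 and 4.52. That order depends on the length assigned, since per kilobase of coding transcript Mrps18a led with 41.2 CPM, ahead of Mrps18c (18.7) and Mrps18b (14.2). Groups overlapped in all 3, and the log2 fold changes were 0.03 (SE 0.21), -0.07 (SE 0.20) and -0.20 (SE 0.24) for Mrps18c, Mrps18a and Mrps18b. In each, control 3 was the highest control library, and ultrasound 3 was the lowest ultrasound library for Mrps18a and Mrps18b. Mrps30, another large subunit protein named for the small one, had 2.86, 3.00 and 2.77 FPKM in controls and 2.09, 2.67 and 2.36 with ultrasound, which did not overlap, and a log2 fold change of -0.23 (SE 0.18, edgeR adjusted p 0.976). On TMM-scaled counts its groups overlapped, and the estimate was -0.12 without ultrasound 1 and -0.37 without ultrasound 2. Mrps36, the dehydrogenase subunit, had 9.24, 9.02 and 9.45 FPKM against 10.5, 7.21 and 8.13 and a log2 fold change of -0.07 (SE 0.19). Its 3 control values lay within the range of the ultrasound values.

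Median estimates lay between -0.03 and 0.07 in each of the 4 classes formed by subunit and evolutionary origin, leaving out Mrps36, Mrps18a and Mrps18b. The median log2 fold change was 0.03 for the large and 0.03 for the small subunit, with 29 of 51 and 16 of 26 members higher. Within the large subunit, 30 counterparts of bacterial proteins had a median of 0.07 with 20 higher. The 20 proteins assigned no counterpart in the bacterial ribosome had -0.03 with 9 higher. Within the small subunit the medians were 0.06 for 16 bacterial counterparts, 10 of them higher, and 0.02 for 9 proteins assigned none, 6 of them higher. Median FPKM of these 4 classes was 10.2, 8.67, 8.35 and 9.43.

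The members moved together between libraries, within the ultrasound group more than between the groups. On log2 CPM (counts scaled to a common library total) scaled by TMM, each member was set against its own mean over the 6 libraries, and the median over members was compared with that over all tested genes. The difference was -0.04, -0.00 and -0.00 in the controls and -0.03, 0.23 and -0.15 with ultrasound, in order of library number. Ultrasound 2 was thus high and ultrasound 3 low, with the 3 controls and ultrasound 1 between them. In ultrasound 2, 68 of 78 members lay above their own mean, and it was the highest library for 42 of them (53.8%), where 17.0% of all genes had their highest value there. In ultrasound 3, 19 lay above their own mean, and it was the lowest library for 24 (30.8%, against 16.0% of all genes). Both subunits took part, at 0.24 and 0.20 in ultrasound 2 and -0.12 and -0.18 in ultrasound 3 for the large and the small subunit.

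Several other gene groups were also highest in ultrasound 2 and low in ultrasound 3, though not in the same order throughout. The 80 genes of cytosolic ribosomal proteins stood at 0.31 in ultrasound 2, -0.22 in ultrasound 1 and -0.19 in ultrasound 3, and the 37 subunits of respiratory complex I at 0.23, -0.06 and -0.19. The 16 ATP synthase genes stood at 0.22 in ultrasound 2 and -0.17 in ultrasound 3. Complex I and ATP synthase genes were lowest in control 1, at -0.21 each, where the members stood at -0.04. A further 1263 tested genes, neither mitochondrial nor cytosolic ribosomal protein genes, had a coding transcript shorter than the members' median of 1327 bases, and they stood at 0.19, -0.09 and -0.13 in ultrasound libraries 2, 1 and 3. The median coding transcript of tested genes was 3204 bases. By contrast, 15 mitochondrial translation factors lay at -0.01 and 13 mitochondrially encoded proteins at -0.02 in ultrasound 2. The 18S share was highest in ultrasound 2 (9.18%) and next highest in control 3 (4.68%), where the members stood at -0.004. Choroid plexus markers were highest in ultrasound 3 (238) and next highest in ultrasound 2 (13.1). The part of transcript length, 18S share and choroid plexus tissue in these values was not tested.

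**Figure D5:**
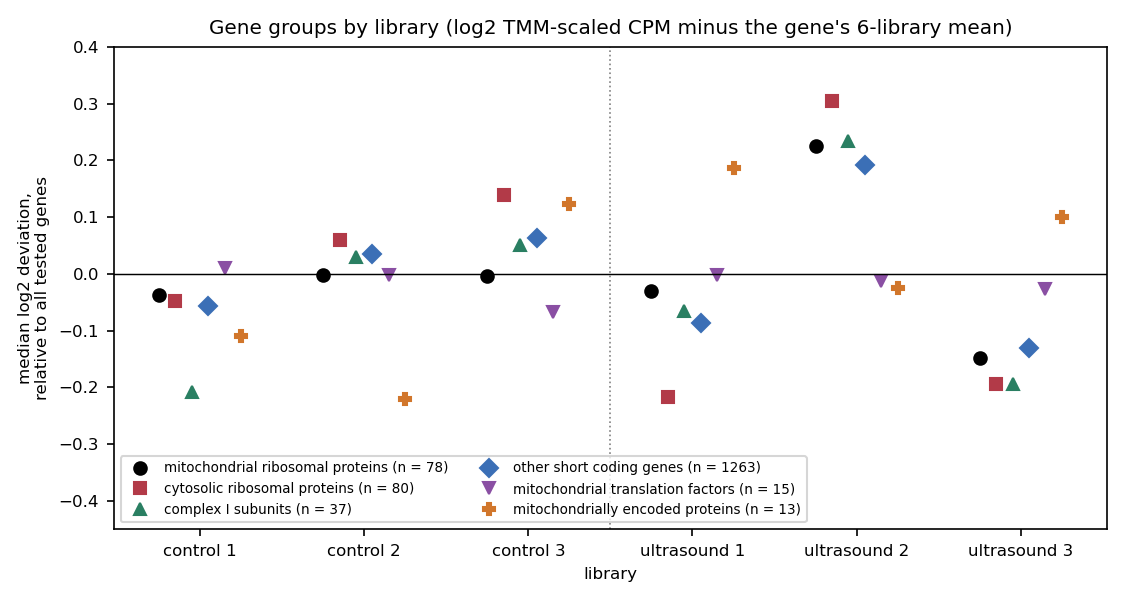
Median deviation from each gene's 6-library mean (y axis, log2 CPM scaled by TMM, minus the same over all tested genes) in each library (x axis) for the 78 members and 5 other gene groups. Members stand at 0.23 in ultrasound 2 and -0.15 in ultrasound 3, and the cytosolic ribosomal protein, complex I and short coding gene groups are likewise highest in ultrasound 2 and below 0 in ultrasound 3.

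The rest of mitochondrial gene expression was read in the same fit. In none of its lists did a gene pass edgeR's adjusted threshold, and most list medians shifted or changed side when 1 library was left out. Of 5 mitoribosome proteins with other symbols, 2 were higher and 3 lower (median log2 fold change -0.06, from -0.20 without ultrasound 2 to 0.07 without ultrasound 3), among them Gadd45gip1 at -0.25 (SE 0.19) and Ptcd3 at -0.06 (SE 0.13). Of 27 factors that assemble or modify the particle, 12 were higher and 15 lower (median -0.01, from -0.07 without control 3 to 0.03 without control 1), and the smallest p-values belonged to Trmt2b, an RNA methyltransferase, at -0.44 (SE 0.35), and Rbfa, a small subunit maturation factor, at -0.22 (SE 0.18). The ribosomal RNAs mt-Rnr1 and mt-Rnr2 had -0.02 (SE 0.23) and 0.01 (SE 0.26), with a median from -0.26 without ultrasound 2 to 0.22 without ultrasound 1. The FPKM of mt-Rnr1 was lowest in ultrasound 1 (2195) and highest in ultrasound 2 (3844). They carry no long poly(A) tails, and the libraries were made by oligo(dT) selection.

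Among 15 translation factors, 6 were higher and 9 lower (median -0.08). Without ultrasound 3, 8 were higher and the median was 0.00, without control 1 it was -0.01, and without control 3 it was -0.15. Of these 15, 1 had an unadjusted p under 0.05 by edgeR, against 4.77% of all genes. This was Taco1, the translational activator of the cytochrome oxidase subunit encoded by mt-Co1. It stood at 4.45, 5.55 and 3.68 FPKM in controls and 7.25, 6.68 and 5.77 with ultrasound, without overlap, and its log2 fold change was 0.57 (SE 0.24, edgeR adjusted p 0.973). Gfm2, which splits the particle after termination, had -0.29 (SE 0.14). Of 17 mitochondrial aminoacyl-tRNA synthetases, 7 were higher and 10 lower (median -0.08, from -0.09 without ultrasound 1 to -0.03 without ultrasound 3). None passed the adjusted threshold of edgeR, and 3 had an unadjusted p under 0.05, against 4.77% of all genes. Rars2 and Sars2, which charge the arginine and serine tRNAs, had log2 fold changes of -0.41 (SE 0.17) and -0.51 (SE 0.22), both with an edgeR adjusted p of 0.973. Ears2, for glutamate, had 0.72 (SE 0.31), with 0.720, 0.783 and 0.445 FPKM in controls and 1.06, 1.06 and 1.02 with ultrasound. Sars2 is the head-to-head neighbour of Mrps12, which had 0.02 (SE 0.19). The FPKM of Sars2 was 2.84, 3.41 and 4.06 in controls and 2.18, 2.22 and 2.64 with ultrasound, whereas that of Mrps12 was 17.3, 26.1 and 23.3 against 21.6, 23.3 and 20.6. The groups of Sars2 were thus apart and those of Mrps12 overlapped, and the difference between the 2 genes was not tested.

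Of 10 tested genes of mitochondrial DNA transcription and replication, 4 were higher and 6 lower (median -0.10, from -0.21 without ultrasound 3 to -0.03 without ultrasound 1), with Polg, the DNA polymerase, at -0.26 (SE 0.11) and Twnk, the helicase, at -0.35 (SE 0.23). Of 8 regulators of mitochondrial biogenesis, 1 was higher and 7 lower (median -0.20). The median was -0.13 without control 3, -0.15 without ultrasound 2 and -0.27 without ultrasound 1, and with control 3 and ultrasound 2 both left out it was -0.10 with 3 higher and 5 lower. Yy1, the factor named with the motif found in Mrps18a and Mrpl32, stood at 12.5, 13.4 and 11.8 FPKM in controls and 11.7, 9.01 and 10.9 with ultrasound, and Nrf1 at 1.02, 1.03 and 1.58 against 0.935, 0.920 and 0.859. In both, all ultrasound FPKM values lay below all control values, the log2 fold changes were -0.22 (SE 0.12) and -0.38 (SE 0.23), and the edgeR adjusted p was 0.973. For Yy1 the groups were narrowly apart, with control 3 at 11.75 and ultrasound 1 at 11.68 FPKM, without TMM scaling.

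The products of the mitoribosome, the 13 mitochondrially encoded proteins, had 9 genes higher and 4 lower (median 0.16). Without ultrasound 1, 7 were higher and 6 lower with a median of 0.005, and the median was 0.05 without control 1 and 0.06 without control 2, so it rested largely on these libraries. Without control 3 all 13 were higher (median 0.20). A single gene, mt-Nd4l, had an unadjusted p under 0.05 by edgeR (4.77% of all genes). Its FPKM was 2100, 2063 and 2020 in controls and 3816, 2011 and 2643 with ultrasound. By FPKM, which carries no TMM scaling, ultrasound 2 thus lay narrowly below the controls. The log2 fold change was 0.48 (SE 0.20, edgeR adjusted p 0.973). The next smallest p belonged to mt-Nd3, at 0.32 (SE 0.18). Of the 37 nuclear genes of complex I, 24 were higher and 13 lower (median 0.03, against -0.01 of all genes). With 1 library left out the median ran from -0.07 without ultrasound 2, where 10 were higher, to 0.12 without ultrasound 3, where 29 were, and without control 1 it was -0.03 with 9 higher. Ndufv2 and Ndufb1 had 0.29 (SE 0.17) and 0.24 (SE 0.17). Of 16 ATP synthase genes 9 were higher (median 0.01, from -0.09 without ultrasound 2 to 0.09 without ultrasound 3, and -0.05 without control 1), with Atp5l at 0.32 (SE 0.17) and Atp5j2 at 0.21 (SE 0.17). The cytosolic ribosomal proteins had 30 of 80 genes higher (median -0.05, from -0.23 without ultrasound 2 to 0.05 without ultrasound 1), 1 with an unadjusted p under 0.05, Rpl17 at -0.86, and 0 past the adjusted threshold. With control 3 and ultrasound 2 both left out, the other lists also moved. Medians were then 0.25 for encoded proteins (13 higher), -0.16 for synthetases (4 higher) and -0.21 for cytosolic ribosomal proteins (14 higher). They were -0.04 for complex I (13 higher) and for ATP synthase (6 higher), -0.06 for translation (5 higher) and assembly factors (9 higher). For DNA transcription and replication it was -0.04, for ribosomal RNAs -0.19 and for other-symbol proteins -0.08.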

How the data were processed

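RNA of 3 control and 3 ultrasound motor cortex libraries was measured after oligo(dT) selection, as paired reads of a dUTP library, per the labels' protocols. Per the file headers, the deposited table holds raw counts and, as FPKM values, counts that the authors divided by transcript length and mapped fragments. The submitters' processing notes name cutadapt 1.9, HISAT2 2.0.4, StringTie 1.3.4d, DESeq2, edgeR and the build mm10. The counting tool, its use of strand and the annotation are not given in the sources used. All 78 members are in GENCODE M21, but only 1 has the same start and end there, so gene coordinates follow the table. These coordinates do not match the GRCm38.p6 promoter windows. Mrps18a starts at 46421912 as listed, against a window of 46110754 to 46111053, and Mrps15 at 125940718 against 126046678 to 126046977. The listed coordinates thus seem not to follow the build named, and positions from the 2 sources cannot be set side by side. The table's other 12 value columns were left out.

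The counts of the 15740 genes that averaged 0.5 FPKM or more entered edgeR 4.0.16 (R 4.3.3; quasi-likelihood test, TMM scaling, robust option, no covariate). Benjamini-Hochberg adjustment covered all of them, with a threshold of 0.05. Log2 fold changes are ultrasound minus control, and the SE is the size of the log2 fold change over the square root of F. The fit was also run on counts simulated from the dispersions of these data, without shifts of single libraries. That run does not show how changes as small as those of most members would be detected. Log2 CPM (counts scaled to a common library total) by library used a prior count of 2. Alternatives used limma 3.58.1 and DESeq2 1.42.0, other scalings and filters, and fits without single libraries. Libraries of the same number did not deviate together (correlations of -0.038 to 0.068). No pair of libraries was identical.

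The members and gene lists were chosen with earlier results of these data known. The rule for named genes took the 8 members with the smallest p in each direction, the 6 highest and the 6 lowest by mean FPKM, the 3 Mrps18 paralogues, Mrps30, Mrps36, Mrpl12 and the 2 genes per related list with the smallest p. Mrpl17, Mrpl23, Mrpl36, Mrpl42, Mrpl46, Mrpl48, Mrpl53, Mrps5, Mrps11, Mrps25, Mrps27, Mrps28, Ears2, Psma2 and the other neighbours and single calls were picked with values in view. The labels name no molecular identifiers, so counts may not be independent molecules.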

Additional observations from a re-analysis of the deposited data

How the results depend on the processing

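Across the 16 alternatives, 0 members and 0 genes of the related mitochondrial lists passed the adjusted threshold. The 8 members with the smallest p-values in each direction kept their sign in 255 of 256 refits. The exception was Mrpl52, at 0.0207 without control 3 and down to -0.48 with other single libraries left out. These 16 were picked by p from the same libraries that the refits reuse, so the kept signs are no independent support. No such share was computed for the other members. Members with an unadjusted p under 0.05 numbered 0 in the fit reported (751 of all 15740 genes) and 2 with DESeq2 (891 of 15740). Limma gave 1 member under each of 3 pseudocounts, 0.1, 0.5 and 1 (756, 762 and 759 of 15740 genes). Without an FPKM minimum there was 1 (1117 of 30480 genes). With single libraries left out there were 0 to 1, namely Mrps10 without control 1 (813 of 15740 genes) and Mrpl32 without ultrasound 1 (586 of 15740). Genes of the whole table past the adjusted threshold numbered 1 in the fit reported, 29 with DESeq2, 0 with limma under each pseudocount, 2 without an FPKM minimum, 8 without control 3 and ultrasound 2, and 1 to 4 with single libraries left out. Members whose groups did not overlap numbered 9 by FPKM, where 10.8% of all tested genes did not. With TMM-scaled counts they numbered 4, where 5.69% of all tested genes were apart and higher and 5.66% apart and lower. They numbered 5 with DESeq2 size factors and 8 with library totals, and the shares over all genes were not computed for these 2 scalings. The cause of these differences was not tested.

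The number of members higher with ultrasound ran from 30 (without ultrasound 2) to 55 (without ultrasound 3), with 31 when control 3 and ultrasound 2 were both left out and 35 by limma (44.9%, against 42.8% of all genes). Their median log2 fold change ran from -0.06 to 0.11 in the same fits. The replicate block, which treats libraries of equal number as pairs, gave a median of 0.02, 42 members higher, 0 members and 1 gene of the whole table past the adjusted threshold, and it changed no call among the members. The median by library relative to all genes stayed between 0.21 and 0.23 in ultrasound 2 and between -0.15 and -0.13 in ultrasound 3 under 4 scalings. With 3 libraries per group, the intervals given in the report limit what could be detected, and an exact permutation test of 1 value could not fall below 0.1.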
